A study of Mus musculus with 6 samples.

Results

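The genes examined were 10 components of canonical Wnt signaling, chosen by name from the 54418 rows of the count table. They comprise the 4 TCF and LEF transcription factor genes *Lef1*, *Tcf7*, *Tcf7l1* and *Tcf7l2*, the feedback and target genes *Axin2*, *Nkd1*, *Notum* and *Sp5*, and the receptor genes *Lgr5* and *Lgr6*. Transcripts were measured by RNA-seq in mammary epithelial cells sorted from 3 wild-type (WT) and 3 *Glis2* knockout (KO) females of 4 weeks, of the C57BL/6 strain per the labels, with 1 library per mouse. The KO mice carry a germline mutation of *Glis2*, a zinc finger transcription factor gene, in all of their cells, and no further allele or treatment is given for either genotype. The sort used TER-119, CD31 and CD45 as markers of other lineages, and CD24 and CD49f. The methods text gives no gate for these libraries, and markers of both basal and luminal cells were detected in every library.

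In canonical Wnt signaling, a ligand stops the destruction complex from degrading β-catenin, which then enters the nucleus and binds TCF and LEF proteins on the enhancers of target genes. Without a signal, the same TCF proteins recruit corepressors, and TCF7L1 is known mainly as a repressor. Many targets, including *Axin2*, *Nkd1*, *Notum* and the ubiquitin ligase genes *Rnf43* and *Znrf3*, encode inhibitors of the pathway, so their transcripts are widely used as readouts of it. In the mammary gland, Wnt signaling is known for its part in basal stem cells, and *Axin2*, *Lgr5* and *Lgr6* have been used to trace such cells.

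Promoter sequence was available for 8 members in 13 windows of 300 bases from RefSeq (build GRCm38.p6), each with 250 bases before an annotated start, and *Lgr5* and *Notum* had none. A TCF/LEF motif, searched as the letters CTTTGAA or CTTTGAT on both strands, was present in 1 of the 13 windows (7.69%) and in 8.65% of the 32851 windows of all genes. The one match lay before *Sp5*, a zinc finger gene induced by Wnt in many tissues, and began 104 bases before the start. It is shown because it is the only match among the members, with the motif in capitals and the flanking bases in lower case, and it lies on the plus strand at chr2:70474789-70474855.
Sp5: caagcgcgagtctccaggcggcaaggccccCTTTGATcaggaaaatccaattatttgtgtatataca
The 100 bases before the first listed start of *Axin2*, at chr11:108920249-108920348, and of *Lef1*, at chr3:131110197-131110296, are shown as a direct target and a factor gene whose CPM were both highest in the same library. Both lie on the plus strand, and CG pairs are in capitals.
Axin2: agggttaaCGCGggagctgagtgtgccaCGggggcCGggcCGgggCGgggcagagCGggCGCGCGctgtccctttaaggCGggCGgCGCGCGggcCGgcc
Lef1: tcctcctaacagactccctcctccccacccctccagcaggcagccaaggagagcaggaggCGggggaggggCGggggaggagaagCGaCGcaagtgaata
The *Axin2* stretch held 16 CG pairs, more than 96.1% of all windows, whereas the *Lef1* stretch held 4, against a median of 3 over all windows. A match or its lack describes only these windows, since enhancers of Wnt targets often lie elsewhere.

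Total estimated counts ranged from 24996524 to 31393917 per library. *Glis2* itself was not absent from the KO libraries: it had 671, 663 and 510 counts in WT and 252, 509 and 510 in KO. These are counts over the whole gene, and the groups were taken from the labels. Its CPM (its reads scaled to library size) were lower in every KO library than in every WT library, beside 11.7% of all genes without overlap in either direction. The log2 fold change of *Glis2* was -0.57 (SE 0.22, adjusted p = 0.906 in edgeR's quasi-likelihood test), so it was not called. Basal keratins, smooth muscle genes and the other basal markers were detected in every library (11 of 11), as were luminal markers (12 of 12). The 11 basal markers summed to 4716 to 6051 CPM in WT and 6428 to 7744 CPM in KO, without overlap. The 9 fibroblast markers were also present, at 2348 to 7814 CPM in WT and 2651 to 5987 CPM in KO, and were lowest in replicate 2 of both genotypes. Luminal, adipocyte, skeletal muscle and Schwann cell markers overlapped between the genotypes, at 4042 to 6666, 52.3 to 309, 5.74 to 41.8 and 270 to 459 CPM in WT and 3969 to 7005, 94.8 to 264, 9.91 to 11.6 and 285 to 336 CPM in KO, and *Adipoq*, *Cidec*, *Lep* and *Retn* were each at 0 in at least 1 library. The part of these cell types in the values below was not tested. In bulk libraries of this kind, fewer cells of a type and less RNA per cell cannot be told apart.

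The plot of CPM by library shows the 8 members that had enough counts to be tested. *Notum*, a secreted enzyme that inactivates Wnt ligands, and *Sp5* did not pass the filter on low counts. *Notum* had 0, 1 and 5 counts in WT and 3, 4 and 1 in KO. *Sp5* had 0 counts in all WT libraries and 0, 3 and 0 in KO. A count of 0 allows up to 3 counts, which is 0.0956 to 0.12 CPM at these depths before scaling, so a difference in either gene was not detectable.

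**Figure D1:**
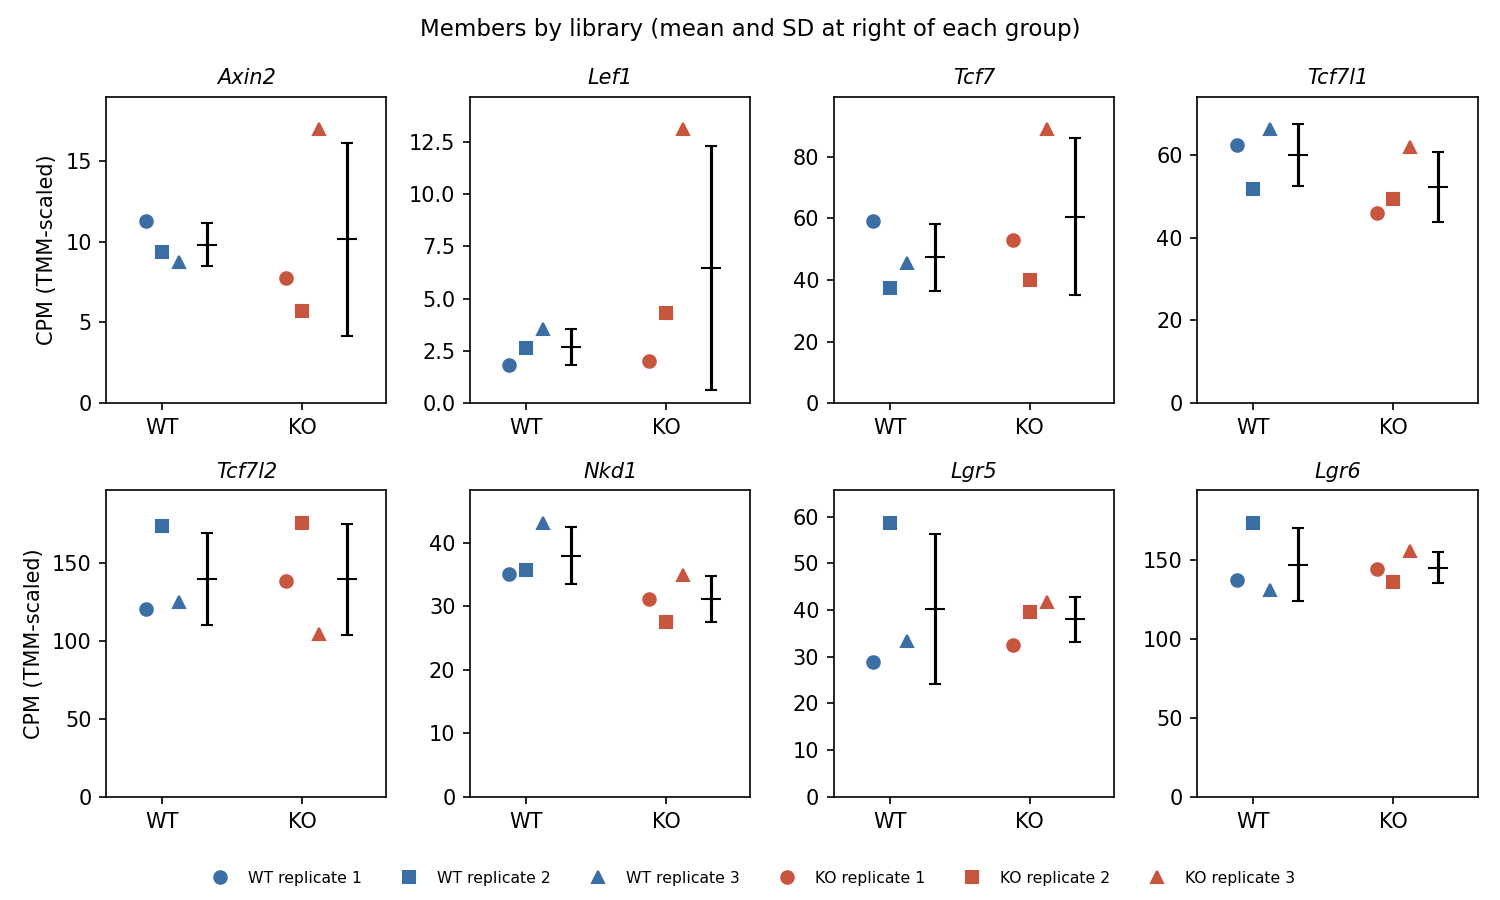
CPM of the 8 members that passed the filter, on a linear axis from 0 for each gene, with 1 point per library, the genotype by colour and the replicate number by shape. Black bars are the mean and SD of 3 mice. KO replicate 3 is the highest point for Axin2, Lef1 and Tcf7, and Nkd1 is the only gene whose genotypes do not overlap.

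With edgeR's quasi-likelihood test over all 21236 genes that passed the filter, 0 members were called, where a call needs an adjusted p no larger than 0.05 and a log2 fold change beyond 0.58 in either direction, beside 0 of all genes (0%). At an unadjusted p under 0.05 there were 0 of the 8 members, beside 1130 genes or 5.32% of those tested. DESeq2 with apeglm shrinkage called 45 genes (0.165% of the 27248 with an adjusted p), none of them a member, and gave 1 member, *Lef1*, an unadjusted p under 0.05, beside 4.1% of all genes with a p in that test. Of the 8 members, 3 were higher and 5 lower in KO, with a median log2 fold change of -0.011 beside a median of 0.011 over all genes. The genotypes did not overlap in 1 of the 8 members, beside 11.7% of all genes.

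*Lef1* (chr3:131110471-131224356, build GRCm38), whose product binds β-catenin and activates targets, had the largest log2 fold change of the factor genes in edgeR with all 6 libraries. Its values were 1.85, 2.66 and 3.57 CPM in WT and 2.04, 4.31 and 13.1 CPM in KO, or 57, 76 and 93 counts against 51, 129 and 410. KO replicate 3 was far above every other library, while KO replicate 1 lay among the WT values. The log2 fold change was 1.27 (SE 0.63), with an adjusted p of 0.907 in edgeR and 0.810 in DESeq2. Without KO replicate 3 it was 0.23 (SE 0.50), a smaller change than the -0.35 of *Tcf7l1*. In limma it was 0.25 on log2(TPM + 1), where *Tcf7* and *Tcf7l1* had larger changes of 0.33 and -0.34. On log2(TPM + 0.1) it was 0.61. The apeglm shrinkage in DESeq2 took the values of all 8 members to nearly 0, and that of *Lef1* to 3.73e-06 from 1.27.

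*Tcf7* (chr11:52252371-52283014), which encodes TCF-1, was more abundant and had the same highest library. It was measured at 59.1, 37.4 and 45.4 CPM in WT and 53.0, 39.8 and 88.9 CPM in KO. Outside KO replicate 3, the KO values lay within the WT range. The log2 fold change of 0.36 (SE 0.29, adjusted p = 0.941 in edgeR) was -0.045 (SE 0.22) without that library.

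*Tcf7l1* (chr6:72626378-72789254), which encodes the repressor TCF-3, was measured at 62.4, 51.7 and 66.2 CPM in WT and 45.9, 49.2 and 61.9 CPM in KO. The lowest 2 libraries were KO, and the genotypes overlapped through KO replicate 3. The log2 fold change was -0.20 (SE 0.15, adjusted p = 0.941 in edgeR), and it was -0.35 (SE 0.15) without KO replicate 3 (adjusted p = 0.801). In limma it was -0.34 on log2(TPM + 1) and -0.37 on log2(TPM + 0.1), beside medians of -0.064 and -0.14 over all genes. The fit on log2(TPM + 0.1) gave the smallest adjusted p of any member in any alternative, 0.733.

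*Tcf7l2* (chr19:55741820-55933654), which encodes TCF-4, had 121, 174 and 125 CPM in WT and 139, 175 and 104 CPM in KO. Replicate 2 of each genotype was highest, and these were also the libraries with the lowest fibroblast marker sums, whose part in this order was not tested. The genotype means were 140 ± 29.5 CPM and 139 ± 35.5 CPM (SD, n = 3 each), with a log2 fold change of -0.0019 (SE 0.21). This value depended on the scale, and in limma it was -0.23 on log2(TPM + 1) and -0.24 on log2(TPM + 0.1), beside medians of -0.064 and -0.14 over all genes. Without WT replicate 2 it was 0.19, and without KO replicate 3 it was 0.15.

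The fold changes with and without KO replicate 3 show how far this library set the values of the factor genes and *Axin2*. It was the highest of the 6 libraries for 3 of the 8 members tested, and for 16.8% of all genes tested.

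**Figure D2:**
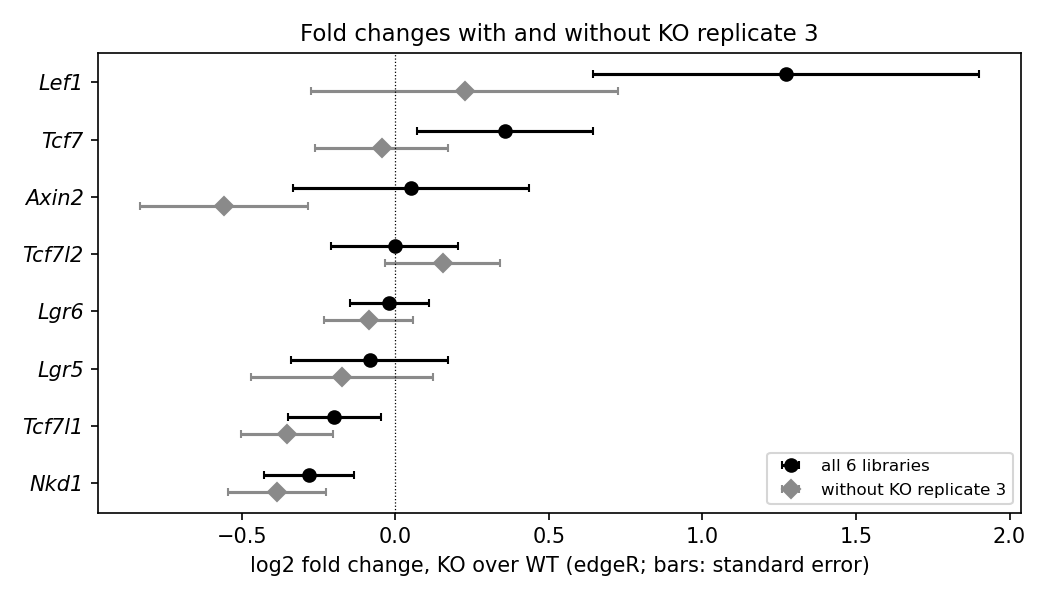
Log2 fold change of KO over WT from edgeR, with the standard error, for 8 members in all 6 libraries (black circles) and without KO replicate 3 (grey diamonds). Lef1 moves from 1.27 to 0.23 and Axin2 from 0.050 to -0.56, and Nkd1, Tcf7l1, Lgr5 and Lgr6 are below 0 in both fits.

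Transcript levels can be compared between genes only per length, so TPM values, which correct for transcript length, were used for this. Since Gm23935, annotated as a microRNA gene, held 83.0% to 85.7% of the TPM of a library but 3.09% to 3.92% of its counts, TPM values of the members are given after removing that gene and rescaling. *Tcf7l2* was the most abundant factor at 83.0 to 122 TPM, above *Tcf7l1* at 54.0 to 81.4 TPM without overlap of their ranges over the 6 libraries. *Tcf7* followed at 26.0 to 77.6 TPM, and its range overlapped those of *Tcf7l1* and of *Lgr6*. *Lef1* was the lowest of the 4, at 0.933 to 7.89 TPM. The 4 factors summed to 215, 216 and 214 TPM in WT and 189, 205 and 235 TPM in KO, so the KO mice spread to both sides of the WT values.

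Within this sum, *Tcf7l2* made up 47.9% ± 7.80 in WT and 44.9% ± 9.50 in KO (SD, n = 3 each), and *Tcf7l1* 34.0% ± 3.72 and 28.9% ± 2.87. The share of *Tcf7* was 25.0%, 12.0% and 15.2% in WT and 22.0%, 18.4% and 32.9% in KO. *Lef1* held 0.433%, 0.932% and 0.818% in WT and 0.604%, 1.06% and 3.35% in KO. The genotypes overlapped for each of the 4 shares. By the exact two-sided permutation test, the difference of KO minus WT was 0.943 percentage points for *Lef1* (p = 0.4), 7.06 for *Tcf7* (p = 0.3), -5.05 for *Tcf7l1* (p = 0.2) and -2.96 for *Tcf7l2* (p = 0.7). Adjusted over the 4 shares, which sum to a whole and are not independent, these exact p values were 0.533 or, for *Tcf7l2*, 0.7, and 0.1 is the smallest p that 3 against 3 mice allow. Leaving out 1 mouse at a time gave differences of 0.104 to 1.48 percentage points for *Lef1*, 2.82 to 10.8 for *Tcf7* and -6.74 to -3.06 for *Tcf7l1*, with the lowest values for *Lef1* and *Tcf7* without KO replicate 3 and the smallest difference for *Tcf7l1* without WT replicate 3. For *Tcf7l2* the sign turned, to 1.32 without WT replicate 2 and 1.89 without KO replicate 3. From shares of CPM, the difference was 4.27 for *Tcf7* and -1.6 for *Tcf7l2*.

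**Figure D3:**
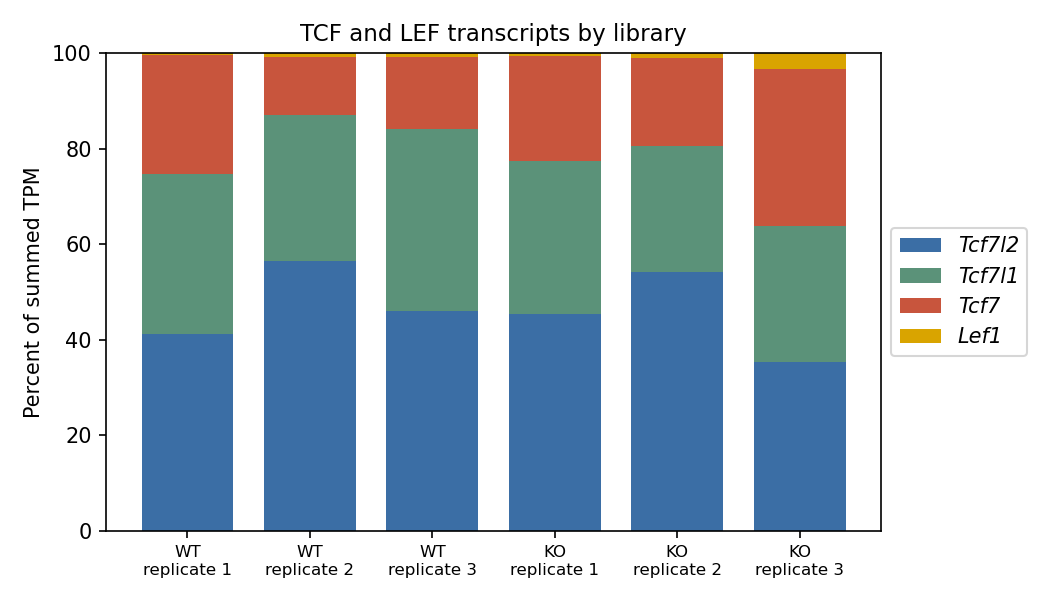
Share of each factor gene in the summed TPM of Lef1, Tcf7, Tcf7l1 and Tcf7l2, as percent, with 1 stacked bar per library. Tcf7l2 is the largest part in every bar, from 35.2% to 56.5%, and in KO replicate 3 Tcf7 reaches 32.9% and Lef1 3.35%.

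*Axin2* (chr11:108920349-108950783), a scaffold of the destruction complex and a widely used Wnt target gene, differed less in CPM between genotypes than among the KO mice. It was measured at 11.3, 9.38 and 8.75 CPM in WT and 7.75, 5.74 and 17.0 CPM in KO. KO replicates 1 and 2 were the lowest libraries and KO replicate 3 the highest. The SD of log2 CPM was 0.19 in WT and 0.80 in KO, beside medians of 0.32 and 0.31 over all genes tested. Its log2 fold change was 0.050 (SE 0.38, adjusted p = 0.996 in edgeR), and without KO replicate 3 it was -0.56 (SE 0.27, adjusted p = 0.806).

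The order of the libraries for *Axin2* depended on the scale. In TPM, WT replicate 1 was the highest at 10.1, above KO replicate 3 at 9.16, and the other 4 libraries lay between 3.40 and 4.80. The larger spread among KO mice was therefore not seen in TPM, where the SD was 3.08 in WT and 3.07 in KO. Counts per TPM, which reflect the transcript length assigned to a gene, were 0.938 times the library's median gene in WT replicate 1 and 1.28 to 1.54 times in the other 5 libraries. This ratio varied 1.64-fold between libraries for *Axin2* and for *Lef1*, beside a median of 1.17-fold over all genes tested. For *Nkd1* it varied 1.04-fold.

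*Nkd1* (chr8:88521354-88594884) encodes an inhibitor that binds Dishevelled, and it was the only member without overlap between the genotypes. Its values were 35.1, 35.7 and 43.1 CPM in WT and 31.2, 27.6 and 34.9 CPM in KO. The highest KO library and the lowest WT library were separated by less than the SD within either genotype (4.47 CPM in WT and 3.64 in KO). Its log2 fold change was -0.28 (SE 0.15), with an adjusted p of 0.919 in edgeR, and the exact two-sided permutation test gave p = 0.1, the smallest it can give. It was below 0 in every fit that left out 1 library, from -0.39 to -0.18. On log2(TPM + 1) and log2(TPM + 0.1) in limma it was -0.31 and -0.42, beside medians of -0.064 and -0.14 over all genes.

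*Lgr5* (chr10:115450311-115587780) and *Lgr6* (chr1:134983301-135105276) encode receptors for R-spondins, secreted proteins that strengthen Wnt signaling. *Lgr5* was measured at 28.9, 58.6 and 33.3 CPM in WT and 32.5, 39.7 and 41.8 CPM in KO. WT replicate 2 was the highest and the KO libraries lay within the WT range of CPM, but in TPM KO replicates 1 and 2, at 10.8 and 12.6, lay below all WT libraries at 13.7 to 19.8. KO over WT gave a log2 fold change of -0.084 (SE 0.25, adjusted p = 0.985 in edgeR), and without WT replicate 2 it was 0.29 (SE 0.17, adjusted p = 0.858). In limma it was -0.31 on log2(TPM + 1) and -0.43 on log2(TPM + 0.1), with adjusted p values of 0.752 and 0.749. The medians over all genes on these scales were -0.064 and -0.14.

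*Lgr6* was the steadiest member in KO, with an SD of log2 CPM of 0.096. It was measured at 137, 173 and 131 CPM in WT and 144, 136 and 155 CPM in KO, and WT replicate 2 was again the highest. Its log2 fold change was -0.019 (SE 0.13, adjusted p = 0.995 in edgeR), and it was 0.12 without WT replicate 2. In limma it was -0.16 on log2(TPM + 1) and -0.18 on log2(TPM + 0.1), beside medians of -0.064 and -0.14 over all genes. Per length, *Lgr6* was the more abundant of the receptors, at 29.5 to 39.6 TPM against 10.8 to 19.8 TPM for *Lgr5*, whose range overlapped that of *Nkd1* at 12.6 to 21.1 TPM. The ratio of *Lgr6* to *Lgr5* in TPM was 2.49, 2.00 and 2.16 in WT and 2.84, 2.79 and 2.35 in KO. The genotypes overlapped in this ratio through KO replicate 3. In CPM the ratio was 4.74, 2.95 and 3.92 in WT and 4.42, 3.43 and 3.72 in KO, and the KO values lay within the WT range. *Axin2* was lower than both receptors at 3.40 to 10.1 TPM, and its range overlapped that of *Lef1*.

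*Lef1* and *Tcf7* are also known as genes of T lymphocytes, so 10 markers of T and B cells were summed in each library. The sums were 16.5, 9.07 and 12.4 CPM in WT and 19.0, 21.8 and 33.5 CPM in KO. They did not overlap, and KO replicate 3 had the highest sum as well as the highest *Lef1*, *Tcf7* and *Axin2* by CPM. The next highest sums, in KO replicates 2 and 1, came with the lowest *Axin2* of all libraries, at 5.74 and 7.75 CPM. *Lef1* was next highest in KO replicate 2, at 4.31 CPM, but was 2.04 CPM in KO replicate 1. For *Tcf7* the next highest library was WT replicate 1, at 59.1 CPM, with a marker sum of 16.5 CPM. Of the 10 markers, 9 had counts in every library and *Cd3g* was at 0 in WT replicate 3. Of 9 that were tested, 7 were higher and 2 lower in KO, with a median log2 fold change of 1.17, and 0 were called. *Cd79b* did not pass the filter. The T cell markers were uneven. *Cd3d*, the most abundant, had 243, 124 and 142 counts in WT and 86, 161 and 238 in KO, *Cd8a* had 21, 26 and 27 against 11, 25 and 38, and *Cd4* had 29, 21 and 44 against 44, 102 and 171. *Cd2* had 22, 19 and 23 counts in WT and 45, 35 and 67 in KO, without overlap, and *Cd3e* and *Cd3g* were highest in KO replicate 3, at 93 and 114 counts. Of the B cell markers, *Cd79a* had 44, 15 and 12 counts in WT and 62, 99 and 140 in KO, without overlap. CD45, by which lymphocytes can be gated out, was among the sort markers, and the part of these transcripts in the values of *Lef1*, *Tcf7* and *Axin2* was not tested. Macrophage markers, 7 of 7 with counts in every library, summed to 12.4 to 29.3 CPM in WT and 19.9 to 35.0 CPM in KO, and endothelial markers, also 7 of 7, to 127 to 686 CPM and 194 to 690 CPM.

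**Figure D4:**
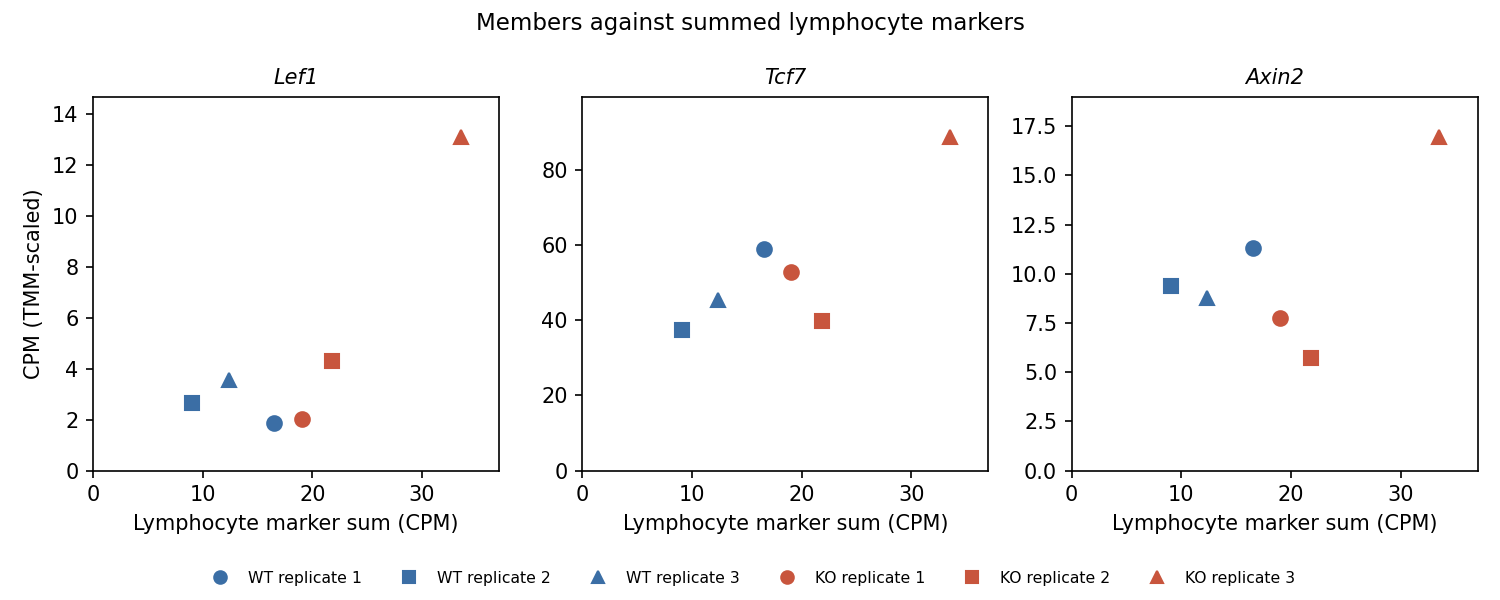
CPM of Lef1, Tcf7 and Axin2 (vertical, linear from 0) against the summed CPM of 10 T and B lymphocyte markers (horizontal), with 1 point per library. KO replicate 3 is at the top right of each panel, with a marker sum of 33.5 CPM, and the other 5 libraries lie between 9.07 and 21.8 CPM. The libraries with the next highest sums, KO replicates 2 and 1, are the lowest points for Axin2.

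The members' pattern was set beside that of all genes tested, with Pearson's r of log2 CPM over the 6 libraries as a description of likeness to *Axin2*. The 3 genes most like it were *Rapgef4* (r = 0.994), which encodes an exchange factor activated by cyclic AMP, *Sec61a1* (r = 0.986), a subunit of the protein channel of the endoplasmic reticulum, and *Cbx3* (r = 0.986), a heterochromatin protein. *Rapgef4* was measured at 10.1, 8.72 and 8.67 CPM in WT and 8.03, 5.88 and 14.1 CPM in KO. Among members, *Tcf7* was the most like *Axin2*, with r = 0.828, and 1.94% of all genes had a higher r. *Tcf7l2* ran in the other direction, with r = -0.794. These values rest on 6 libraries of which 1, KO replicate 3, was highest for *Axin2*, and genes share the libraries' depth and makeup.

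The other genes of the pathway were described from 3 lists. Of 25 nuclear cofactors and components of the destruction complex, all passed the filter, 21 were higher and 4 lower in KO, and 0 were called. Their median log2 fold change was 0.059, beside 0.011 for all genes, of which 51.6% were higher. *Ctbp2*, a corepressor, had the smallest unadjusted p of the list. It was measured at 107, 93.1 and 86.0 CPM in WT and 119, 114 and 111 CPM in KO, and was 1 of 2 genes of the 25 without overlap, beside the 11.7% of all genes. Its log2 fold change was 0.26 (SE 0.11, adjusted p = 0.906 in edgeR). *Pygo1*, which links β-catenin to chromatin, had a log2 fold change of 0.60 (SE 0.28), which was 0.34 without KO replicate 3, and *Bcl9*, its adaptor, 0.21 (SE 0.12). β-catenin itself, *Ctnnb1*, had a log2 fold change of 0.059 (SE 0.087).

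Of 19 further Wnt target genes, 16 passed the filter, 7 were higher and 9 lower, 0 were called, and the median was -0.039. *Dkk1*, *Dkk4* and *Ascl2* did not pass and had at most 13, 3 and 11 counts in a library. *Cd44*, a hyaluronan receptor, was measured at 137, 172 and 144 CPM in WT and 124, 108 and 129 CPM in KO. *Jag1*, a Notch ligand, had 158, 108 and 124 CPM in WT and 95.8, 98.1 and 107 CPM in KO. The genotypes did not overlap in 3 of the 16 genes tested, these 2 among them, beside the 11.7% of all genes. The log2 fold changes of -0.33 (SE 0.12) and -0.37 (SE 0.15) each had an adjusted p of 0.906 in edgeR. *Tnfrsf19*, a receptor of the TNF family, was uneven among mice, at 2.66, 0.945 and 2.26 CPM in WT and 7.19, 0.534 and 10.2 CPM in KO, and its log2 fold change was 1.61 (SE 0.86, adjusted p = 0.920 in edgeR) and 0.96 without KO replicate 3. The ubiquitin ligase genes that limit Wnt receptors, *Rnf43* and *Znrf3*, had log2 fold changes of 0.10 (SE 0.14) and -0.0017 (SE 0.18), and *Ccnd1*, which encodes cyclin D1, had 0.14 (SE 0.087).

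Of 5 partners of the Lgr receptors, *Lgr4* and *Rspo1* passed the filter, with 1 higher, 1 lower and 0 called. *Lgr4*, another R-spondin receptor gene, was measured at 71.0, 81.7 and 57.7 CPM in WT and 75.7, 84.1 and 105 CPM in KO, with a log2 fold change of 0.33 (SE 0.17, adjusted p = 0.910 in edgeR), and KO replicate 3 was again the highest. Without that library it was 0.17. The ligand gene *Rspo1* was low, at 0.843, 1.93 and 1.19 CPM in WT and 0.999, 0.835 and 0.607 CPM in KO. *Rspo2*, *Rspo3* and *Rspo4* had at most 14, 29 and 2 counts in a library.

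**Figure D5:**
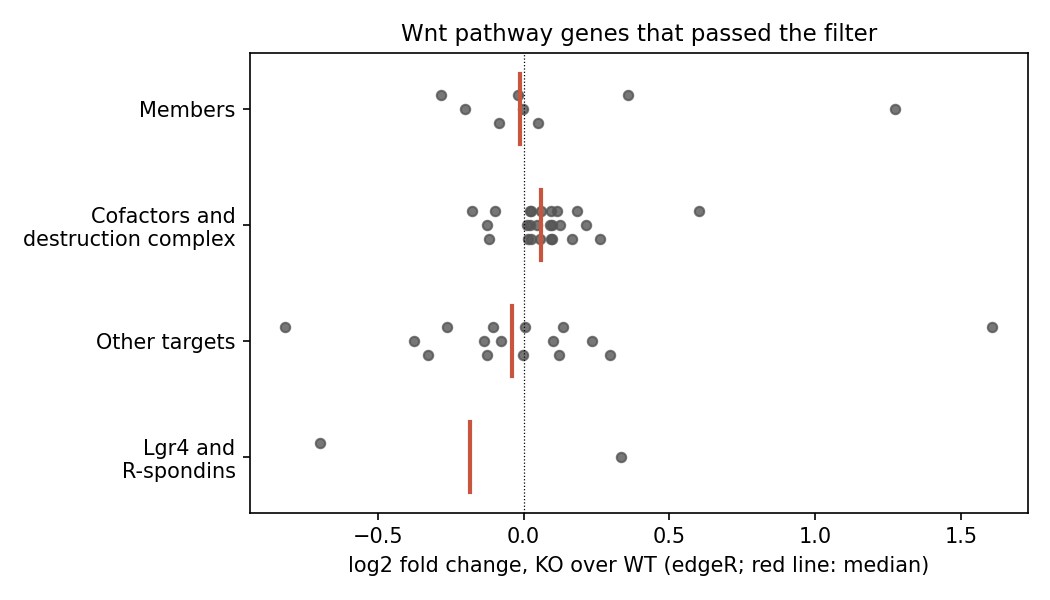
Log2 fold change of KO over WT from edgeR, with 1 point per gene that passed the filter, for the members and for 3 lists of other Wnt genes, and a red line at each median. The medians are -0.011 for the 8 members, 0.059 for 25 cofactors and destruction complex genes, -0.039 for 16 other targets and -0.18 for Lgr4 and Rspo1.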

How the data were processed

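The authors made the deposited estimated counts with Salmon 1.2.1 on a mm10 transcriptome and tximport, as whole numbers without scaling, and they also deposited TPM on a log2 scale after adding 1. Counts were normalized by TMM and tested with edgeR 4.0.16 (R 4.3.3; filterByExpr, quasi-likelihood, Benjamini-Hochberg over all genes tested), 3 WT against 3 KO. Total counts were 24996524 to 31393917 per library, with a common biological coefficient of variation of 37.4%. CPM values use TMM-scaled library sizes, and log2 CPM a prior count of 2. Of 54418 identifiers, 54166 were matched to GENCODE vM21 (GRCm38) symbols. *Tle5* was matched by its older symbol. Reads could be shared between overlapping genes.

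The members and lists were chosen with earlier results of these data known. Named were the members, *Glis2*, the 3 genes most like *Axin2*, and in each list the called genes or else the 3 with the smallest p. Other list genes were named after their values were seen, as biological context. Alternatives were DESeq2 1.42.0 with apeglm 1.24.0, its size factors, 2 filters, log2 TPM in limma 3.58.1, no fold threshold, leaving out 1 mouse at a time and a replicate block. Functions were tested on simulated data.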

Additional observations from a re-analysis of the deposited data

How the results depend on the processing

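No member was called under any alternative, and the smallest adjusted p of a member was 0.733. The count of genes called was 0 with edgeR, 45 with DESeq2 and apeglm shrinkage, 40 without a filter on low counts and 1 with log2(TPM + 0.1) in limma, and 0 in each fit that left out 1 mouse. *Lef1*, *Tcf7l1* and *Nkd1* had the same direction in all 16 alternatives. The value of *Lef1*, 1.27, became 0.25 with log2(TPM + 1), 0.61 with log2(TPM + 0.1), 0.92 with a replicate block and 3.73e-06 with DESeq2 and apeglm shrinkage (1.27 in DESeq2 without shrinkage, added after seeing the data). Same-numbered mice were not correlated throughout (r = -0.022, 0.17 and 0.023), so the numbers were not taken as pairs. With a replicate block, the log2 fold change of *Axin2* was -0.10, and no other member changed direction. For *Axin2* it was -0.15 with log2(TPM + 1) and -0.30 with log2(TPM + 0.1), and -0.0815 and -0.163 relative to the medians of all genes on those scales (-0.064 and -0.14), an alternative chosen after seeing the data. Leaving out 1 mouse gave log2 fold changes of -0.56 to 0.33 for *Axin2*, 0.23 to 1.69 for *Lef1*, -0.045 to 0.58 for *Tcf7*, -0.35 to -0.12 for *Tcf7l1*, -0.21 to 0.19 for *Tcf7l2*, -0.29 to 0.29 for *Lgr5* and -0.098 to 0.12 for *Lgr6*, and differences of -7.61 to 1.89 percentage points for the share of *Tcf7l2* in the factors' TPM, against -2.96 in all libraries. The cause was not tested.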
